A study of Mus musculus with 4 samples.

Results

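Transgelin, caldesmon and tropomyosin genes encode proteins that lie along the actin thin filament of contractile cells. Of the 542 genes that could be named on these arrays, 5 belonged to this group, namely Tagln, Tagln2, Cald1, Tpm2 and Tpm1, each with 1 probe set. They were chosen by membership in the authors' own table of probe sets that differed between NKO and control samples, in which each of these probe sets carries a single gene name. The array values below come from that same contrast, and they are therefore given as a description without a test. Other probe sets of these 5 genes, outside that table, could not be named and were not analysed, so that each gene rests on 1 selected probe set. The probe set nearest to no difference among the 5 was that of Tpm2. Probe sets just outside the authors' table could not be named here, since only that table paired probe sets with genes, and no value beyond its threshold was set beside that of Tpm2.

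In the thin filament, tropomyosin dimers run along actin and control the access of myosin. Troponin moves tropomyosin in striated muscle, whereas smooth muscle has caldesmon and calponin in its place, and transgelin, a calponin relative, bundles actin. Tagln is an early marker of smooth muscle differentiation, and neural crest cells (NCCs) of the outflow tract (OFT) become the smooth muscle of the great arteries. Nonmuscle cells make these proteins as well, as part of their stress fibers.

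Cardiac NCCs were isolated at E10.5 from OFTs of NKO mutant embryos, which lack ILK in the neural crest (Wnt1-Cre with both floxed ILK alleles), and of control littermates. Controls are named wildtype in the labels, but the littermate controls of the study are described as Wnt1-Cre embryos with a single floxed ILK allele, in which case both genotypes carried the Cre transgene. That the cells of both genotypes carried the lacZ reporter is inferred from the FDG stain by which they were sorted. OFTs of a genotype were pooled and cells with β-galactosidase activity, stained with FDG, were collected by fluorescence-activated cell sorting, with cells of several sorts pooled before RNA extraction. Each genotype had 2 biological replicates, each on 1 Affymetrix mouse genome array. Wnt1-Cre marks cells by their descent from the dorsal neural tube, not by what they have become. The sources do not say how embryos and sorts were divided between the replicates.

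The median intensity of an array lay at 79.3 and 76.5 in NKO samples and at 77.2 and 75.9 in controls. On the log2 scale the NKO samples correlated at 0.9948 with each other, as low as the lowest correlation between an NKO sample and a control, and the controls at 0.9968. Ilk, the deleted gene, had intensities of 467.7 and 386.7 in NKO samples, against 809.5 and 800.7 in controls. Of 9 smooth muscle markers only Tagln could be named, and of 9 neural crest markers only Pax3, so that the labelled cell type was checked on few genes; Acta2, Myh11, Cnn1 and Sox10 were not analysed here.

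In the annotation of GRCm38.p6, Tagln lies at chr9:45929628-45936058, Tagln2 at chr1:172500246-172507375, Cald1 at chr6:34598495-34775469, Tpm2 at chr4:43513726-43523583 and Tpm1 at chr9:67022590-67049672. Which exons a probe set covers was not known. Promoter windows from RefSeq (GRCm38.p6, from 250 bases before a start site to 50 after it, 300 bases in all) were matched for 4 of the 5 genes. The motifs were picked after the array values had been seen. They were the CArG box that binds serum response factor, the letters CATTCC bound by TEAD factors, the letters GGGCGG of the GC box and the letters TATAAA, each searched on both strands, and the printed matches do not overlap one another. Capitals mark the CATTCC and GGGCGG letters or their reverse complements in the stretches before the annotated genes of Tagln2 (chr1:172499996-172500245, plus strand), Cald1 (chr6:34598254-34598494, plus strand) and Tpm2 (chr4:43523584-43523804, minus strand), which are shown because these genes were higher in NKO samples. For Tpm1, the lower gene, 30 bases around its CATTCC match are shown (chr9:67049252-67049281, minus strand), which lie inside the annotated span of the gene and 5′ of an internal start site.
Tagln2: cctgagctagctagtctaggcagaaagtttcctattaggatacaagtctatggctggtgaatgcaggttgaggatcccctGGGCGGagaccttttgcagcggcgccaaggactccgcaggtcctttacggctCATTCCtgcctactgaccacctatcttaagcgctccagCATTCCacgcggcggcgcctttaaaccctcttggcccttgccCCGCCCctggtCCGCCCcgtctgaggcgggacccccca
Cald1: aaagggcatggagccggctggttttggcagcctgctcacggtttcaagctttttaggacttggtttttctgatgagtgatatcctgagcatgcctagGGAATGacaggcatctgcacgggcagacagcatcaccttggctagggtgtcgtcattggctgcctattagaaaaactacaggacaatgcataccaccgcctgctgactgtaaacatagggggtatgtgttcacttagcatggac
Tpm2: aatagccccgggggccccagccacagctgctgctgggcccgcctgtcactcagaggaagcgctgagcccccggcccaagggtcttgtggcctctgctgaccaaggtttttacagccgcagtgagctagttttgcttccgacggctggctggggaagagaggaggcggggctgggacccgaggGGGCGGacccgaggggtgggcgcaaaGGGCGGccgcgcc
Tpm1: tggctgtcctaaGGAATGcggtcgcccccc

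No window of the 4 genes held a CArG box, which 1.63% of all 32851 windows held. Tagln was the gene without a window, so that it was not searched for any motif. The letters CATTCC were found for Tagln2, Cald1 and Tpm1, against 14.7% of all windows, with the matches beginning 118 and 80 bases before the start site for Tagln2, 153 for Cald1 and 56 for Tpm1. The letters GGGCGG were found for 4 of the 4 genes, against 35.7% of all windows, although the matches of Cald1 and Tpm1 lay outside the printed stretches. Cald1 has a second window at another start site, and the only TATAAA match was in it, against 13.6% of all windows. GGGCGG was thus the only motif shared by the 4 genes, higher and lower, and a match is a description of the sequence only. The percentages are shares of windows, whereas a gene was counted for a motif if any of its windows held it. A gene with more windows, such as Cald1, had more chances of a match, so the shares are no expected rate for genes.

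Tagln, the transgelin of smooth muscle, had intensities of 1978 and 1919 in NKO samples, against 1412 and 1448 in controls. Both NKO samples lay above both controls, and the gap of 471.8 between the genotypes exceeded the gap of 58.3 within the NKO samples and of 35.6 within the controls. The NKO mean was 1.36-fold the control mean (1949 ± 41.3 against 1430 ± 25.2, SD, n = 2 each). On the log2(intensity + 16) scale, which understates the differences of dim probe sets, the difference was 0.44 (standard error 0.059, from limma), and single pairs of an NKO and a control sample differed by 0.40 to 0.48. Among all 45037 probe sets, 0.913% had a larger increase. In bulk samples of sorted cells, more cells of a type and more RNA per cell cannot be told apart.

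Tagln2, a transgelin of wide expression that blood platelets also contain, had intensities of 555.4 and 484.6 in NKO samples, against 407.4 and 413.2 in controls. The NKO samples lay above the controls but apart from each other, by 70.7, nearly as far as the gap of 71.5 between the genotypes. The mean was 1.27-fold that of controls (520.0 ± 50.02 against 410.3 ± 4.09, SD, n = 2 each) and the log2 difference 0.33 (standard error 0.087). Its probe set has the suffix that Affymetrix gives where some probes match other sequences too, so that its signal may hold that of other transcripts.

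Cald1 encodes caldesmon, which binds actin and calmodulin and inhibits the ATPase of actomyosin. Its intensities were 274.0 and 243.2 in NKO samples, against 195.7 and 192.9 in controls. The groups did not overlap, and the first NKO sample was again the higher one, as for Tagln2. The mean was 1.33-fold that of controls (258.6 ± 21.8 against 194.3 ± 2.0, SD, n = 2 each), with a log2 difference of 0.38 (standard error 0.080). Without the first NKO sample the log2 difference was 0.30 for Cald1 and 0.23 for Tagln2, and without the second it was 0.46 and 0.42, whereas that of Tagln was 0.42 and 0.46.

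Tpm2, the β-tropomyosin gene of smooth and skeletal muscle, had intensities of 1354 and 1408 in NKO samples, against 1146 and 1161 in controls. Here the second NKO sample was the higher one, and the gap of 193.0 between the genotypes was wider than that of 53.7 within the NKO samples. The mean was 1.20-fold that of controls (1381 ± 38.0 against 1154 ± 10.8, SD, n = 2 each) and the log2 difference 0.26 (standard error 0.059). It was the smallest increase of the 4, and 5.30% of all probe sets had a larger one.

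Tpm1 encodes α-tropomyosin, which heart, skeletal and smooth muscle make in different splice forms. It had intensities of 128.3 and 124.2 in NKO samples, against 154.2 and 160.6 in controls. Both NKO samples were lower than both controls, the opposite order to the other 4 genes. The NKO mean was 0.802 times the control mean (126.2 ± 2.86 against 157.4 ± 4.54, SD, n = 2 each) and the log2 difference −0.29 (standard error 0.061), with a larger decrease in 2.94% of all probe sets. Which splice forms the probe set detects was not known, and other probe sets of Tpm1, outside the authors' table, were not analysed here.

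**Figure D1:**
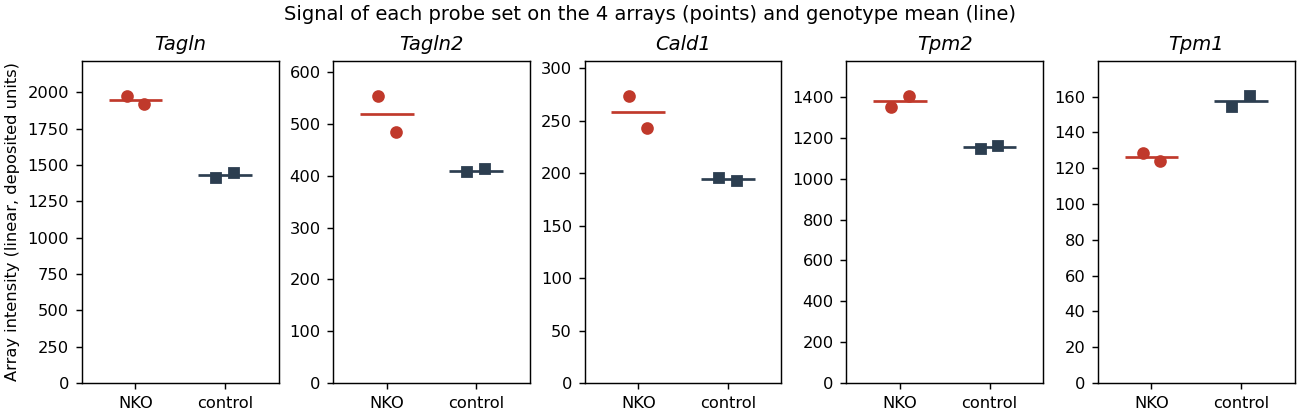
Array intensity (linear, deposited units, each panel from 0) of the 5 probe sets in the 2 NKO samples (red circles, left) and the 2 control samples (dark squares, right), with the genotype mean as a line. The NKO points lie above the control points for Tagln, Tagln2, Cald1 and Tpm2 and below them for Tpm1, and the 2 NKO points are farthest apart, relative to the gap between genotypes, for Tagln2.

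In 4 of the 5 genes the NKO samples were thus above the controls without overlap, and in 1 they were below. Over all probe sets 24.2% were higher without overlap and 18.4% lower without overlap, and because the members had been selected on this contrast their count says nothing beyond the choice. None of the 5 reached the study's cutoff of 1.5-fold, which 0.286% of all probe sets passed as higher and 0.158% as lower. The median difference of all probe sets was 0.013, and that of all 542 named genes 0.24.

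Other genes came from 4 lists, of smooth muscle contractile genes, actin filament genes, serum response factor targets and TGF-β signaling, of which 18 of 148 genes together were named, 12 higher and 6 lower in NKO samples, with a median log2 difference of 0.24, beside 0.24 over all named genes. Like the 5 members, these 18 owe their names to the authors' selection on this contrast. In limma 0 of the 18 passed an adjusted p of 0.05, as did 0% of all probe sets, while 12 higher and 6 lower ones had an unadjusted p under 0.05 (5.18% and 3.64% of all probe sets). When limma's prior variance followed a trend with intensity and was estimated robustly, 7 higher and 4 lower genes passed after adjustment (0.695% and 0.46% of all probe sets). Of all 542 named genes, selected in the same way, 177 higher and 112 lower ones passed with the trend. Their counts at an unadjusted p under 0.05 in limma were 278 higher and 192 lower.

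Of 38 smooth muscle genes beside the 5, only 3 could be named, 1 higher and 2 lower. Cnn2, a calponin that binds actin in smooth muscle and in migrating cells, had intensities of 2822 and 2932 in NKO samples, against 2308 and 2282 in controls (log2 difference 0.32, standard error 0.059), and passed in limma with a trend. Pdlim3, a partner of α-actinin at the Z-line, had a log2 difference of −0.22 (standard error 0.067). For Rgs5, a G-protein regulator of pericytes, the probe sets disagreed, with −0.24 (standard error 0.062) for the brighter and 0.42 (standard error 0.11) for the other, which alone passed in limma with a trend. The brighter probe set has the cross-matching suffix described for Tagln2, and it alone placed Rgs5 among the 2 lower genes. With the trend 0.695% of all probe sets passed as higher, and 177 of the 542 named genes, selected in the same way.

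Of 56 actin filament genes 6 could be named, and apart from Ilk they were higher. These were Rock2, a kinase that drives actomyosin contraction (log2 difference 0.30), Palld, which encodes the actin crosslinker palladin (0.27), Cap1, a recycler of actin monomers (0.24), and the focal adhesion genes Vcl and Zyx (0.22 each). Standard errors lay between 0.058 and 0.099. Vcl, Zyx and Ilk passed in limma with a trend, in which Ilk had a lower signal. With the trend 0.695% of all probe sets passed as higher and 0.46% as lower. Of all 542 named genes, selected in the same way, 321 were higher and 221 lower, and 177 and 112 passed with the trend.

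Serum response factor and its coactivators of the MRTF family drive Tagln, Cald1 and Tpm genes in smooth muscle and are themselves governed by the pool of actin monomers. Of 23 other targets 7 could be named, 6 higher and 1 lower, beside 321 higher and 221 lower of all 542 named genes. Egr1, an immediate early transcription factor, had intensities of 256.6 and 251.8 in NKO samples, against 160.8 and 176.2 in controls (log2 difference 0.55, standard error 0.070). Junb followed with 0.43, the matricellular gene Ctgf with 0.42, its relative Cyr61 with 0.30, Ier2 with 0.25 and Tgfb1i1, which encodes the adhesion protein Hic-5, with 0.24. The lower one was Nppa, the atrial peptide gene of heart muscle, at −0.67 (standard error 0.063). Egr1, Ctgf, Cyr61, Ier2 and Nppa passed in limma with a trend, beside 177 higher and 112 lower of all 542 named genes. The probe set given for Cyr61 has the cross-matching suffix described for Tagln2, and the other probe set of Cyr61 had 0.41.

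Transforming growth factor β also promotes transgelin and caldesmon expression in smooth muscle precursors, and Tgfb2 and Dcn are given here of the 31 genes listed for its pathway. Tgfb2, the ligand, had intensities of 940.8 and 1019 in NKO samples, against 1157 and 1138 in controls (log2 difference −0.23, standard error 0.069). Both NKO samples lay below both controls. Dcn, whose product decorin binds the ligand, had a log2 difference of −0.23 (standard error 0.070). Both genes passed in limma with a trend, and the list is too short here to give the pathway a direction. With the trend 0.46% of all probe sets passed as lower, and 112 of the 542 named genes, selected in the same way.

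Troponins, which act on tropomyosin in striated muscle only, were on the side of Tpm1. Of 16 genes of troponins and their striated partners 5 could be named, and the 5 were lower, with a median log2 difference of −0.30. Tnnt1, a slow skeletal troponin T, had intensities of 571.8 and 566.5 in NKO samples, against 778.9 and 754.1 in controls (log2 difference −0.42, standard error 0.058). Tnni2 had −0.37, Tnni3 −0.30, Tnnt2 −0.22 and Tnni1 −0.22. Tnnt1, Tnnt2, Tnni1 and Tnni3 passed in limma with a trend (0.46% of all probe sets as lower), and 0 of the 5 passed the adjusted threshold without it, against 5 at an unadjusted p under 0.05 (3.64% of all probe sets as lower). Of the 542 named genes, which like these 5 had been selected on this contrast, 221 were lower in all, 112 with a trend and 192 at the unadjusted threshold.

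**Figure D2:**
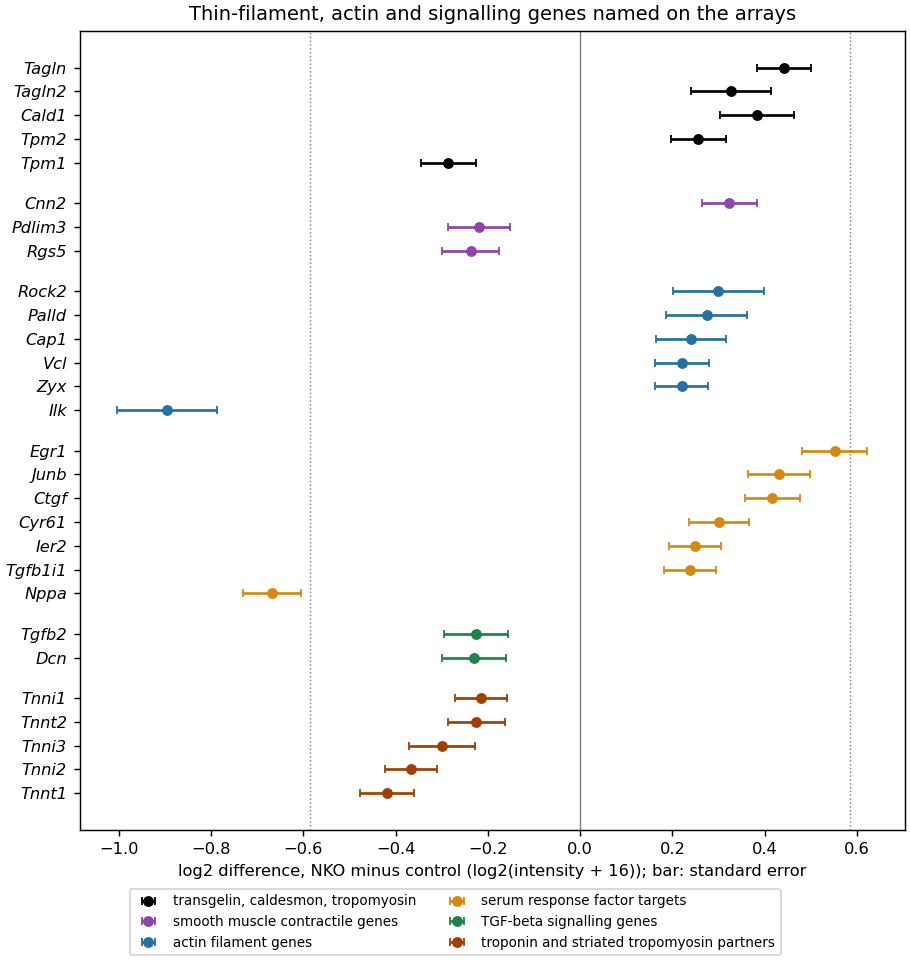
Difference of NKO minus control samples on the log2(intensity + 16) scale for the 5 genes (top) and for the named genes of the contractile, actin, serum response factor, TGF-β and troponin lists, with bars for the standard error and dotted lines at 1.5-fold in either direction. Tagln, Tagln2, Cald1 and Tpm2 lie between 0.26 and 0.44, on the side of Cnn2, Vcl, Egr1 and Ctgf, while Tpm1 at −0.29 lies on the side of the 5 troponin genes.

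Markers of other cells also differed in this contrast. Of 13 heart muscle markers 6 could be named and were lower, with summed intensities of 8548 to 8633 in NKO samples and 10403 to 10544 in controls, and 3 of the 6 are troponin genes named above. Ttn, the gene of the sarcomere spring titin, had a log2 difference of −0.42. Of 9 skeletal muscle markers 5 were named and lower, with sums of 1339 to 1345 in NKO samples and 1879 to 1882 in controls, and Myog, a myogenic transcription factor gene, had −0.56. Heart and skeletal muscle also make Tpm1 and Tpm2. The part of such cells in the lower signal of Tpm1 was not tested, and Tpm2 was higher where these markers were lower.

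Blood and vessel markers, named through the same selection, were on the side of Tagln, Tagln2, Cald1 and Tpm2. Of 8 platelet markers 6 were named and higher, with sums of 3440 to 3530 in NKO samples and 1915 to 1955 in controls. Pf4, the gene of a chemokine stored in platelets, had intensities of 1893 and 1819 in NKO samples, against 1035 and 1002 in controls, a wider difference than that of any of the 5 genes (log2 difference 0.86). For myeloid cells 4 of 6 markers were higher, with sums of 627.0 to 669.9 in NKO samples and 423.9 to 434.8 in controls. For red blood cells 2 of 5 were higher (1502 to 1612 in NKO samples and 1273 to 1290 in controls), and for endothelium 2 of 6 (535.7 to 574.0 in NKO samples and 438.0 to 451.5 in controls). All 8 neuron markers were named and higher, with sums of 3938 to 4175 in NKO samples and 2182 to 2194 in controls, with the neurofilament gene Nefl the brightest (log2 difference 0.82). Pax3, a transcription factor gene of the dorsal neural tube and early crest, had 167.9 and 149.9 in NKO samples, against 116.1 and 110.0 in controls. None of the named markers was at 0 in any sample, the other listed markers were not named here, and the part of these cells in the higher signals was not tested.

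**Figure D3:**
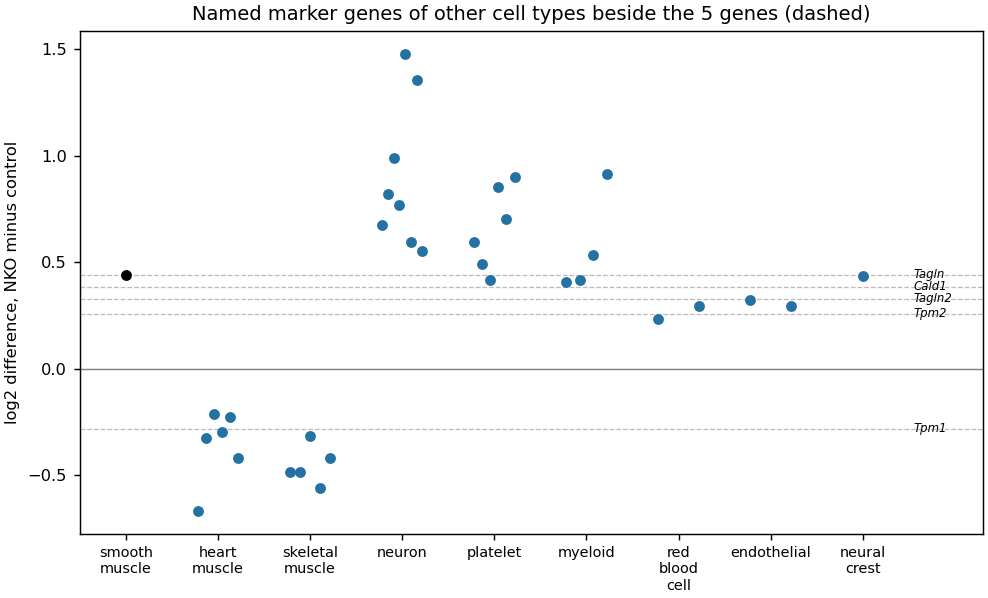
Difference of NKO minus control samples on the log2(intensity + 16) scale, 1 point for each named marker gene, by cell type, with the 5 genes as dashed lines. Heart and skeletal muscle markers lie below 0, on the side of Tpm1. Markers of neurons, platelets, myeloid cells, red blood cells and endothelium lie above 0, on the side of the other 4 genes. Neuron markers, at 0.56 to 1.48, lie above all of these 4. Each named marker had been selected by the authors on this contrast.

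Among the 541 other named genes, the profiles closest to Tagln over the 4 arrays, by Euclidean distance between log2 values centred on each gene's mean, were those of Pi4k2a, a phosphatidylinositol kinase gene (distance 0.029), Ctla2a, a protease inhibitor gene (0.047), Rgs4, a regulator of G-protein signaling (0.047), Rtn1, a reticulon gene of neurons (0.048), and Junb (0.050). Pi4k2a had intensities of 163.4 and 157.6 in NKO samples, against 109.2 and 114.2 in controls. Rtn1 had 313.9 and 316.1 in NKO samples, against 230.9 and 231.3 in controls. Cald1 was at rank 23 from Tagln, Tagln2 at 73, Tpm2 at 154 and Tpm1 at 417. The distance over 4 arrays includes the genotype difference, by which all of these genes had been selected.

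**Figure D4:**
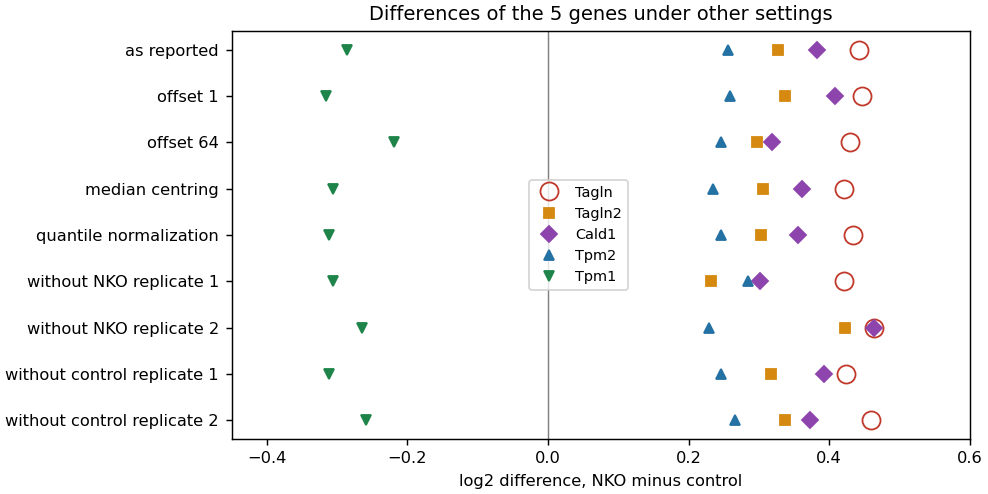
Difference of NKO minus control samples on the log2 scale for the 5 genes as reported and under other offsets, scalings and with each array left out. The sign of each gene is the same in every line, Tagln stays between 0.42 and 0.46, and Tagln2 ranges from 0.23 without the first NKO sample to 0.42 without the second. Since the groups do not overlap, only median centring and quantile normalization could have turned a sign.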

How the data were processed

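RNA of FACS-sorted cardiac NCCs was hybridized to 4 arrays, 2 for each genotype. The authors deposited 1 normalized intensity for each probe set and array. Affymetrix Expression Console is named in the submitters' processing notes, while its algorithm and version were not found in the sources. The intensities are linear, since the mean of the control columns differed by at most 0.0447% from the control intensity in the authors' deposited table of 766 probe sets past a Bonferroni threshold. Only the gene names and that intensity were used from it, and its columns of fold changes and p-values were not.

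The 64 Affymetrix controls were left out of 45101 rows. After adding an offset of 16 and taking log2, genotypes were compared over all 45037 remaining probe sets with lmFit and eBayes of limma 3.58.1 (R 4.3.3) without a trend and with Benjamini-Hochberg adjustment at 0.05, which for 2 against 2 arrays estimates the spread across probe sets. An exact two-sided permutation test could not go below p = 0.333 here. The fit was tested on simulated data. The number of arrays limits the precision. The p-values of limma rest only on the spread between these pooled samples and on a prior variance drawn from all probe sets. Python 3.11.15 with pandas 2.3.3, numpy 2.4.6 and matplotlib 3.10.9 served for the remaining steps.

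The members and the gene lists were chosen with earlier results of these data known. Values are given for all members, for the genes of the pathway and troponin lists that the authors' table names, with the exception stated next, and for the 5 profiles closest to Tagln. A gene of a list was represented by its brightest probe set that names it alone. A gene of the TGF-β list is not reported here and was left out of the counts of that list. Offsets of 1 and 64, median centring, quantile normalization, bright probe sets only, an intensity trend with robust moderation, the replicate block and leaving out each array were the alternatives.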

Additional observations from a re-analysis of the deposited data

How the results depend on the processing

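The sign of the difference of each of the 5 genes was the same under all 11 alternatives, 55 values in all, and 5 of these moved by more than 1 residual SD. Most of these signs were fixed in advance. Bright probe sets only, the trend and the block leave the estimate itself unchanged. Where the groups do not overlap, neither another offset nor leaving out 1 array can turn the sign. Only median centring and quantile normalization could have turned it. Without 1 array the log2 difference ranged from 0.23 to 0.42 for Tagln2 and from 0.30 to 0.46 for Cald1, both ends set by which NKO sample was left out. With an offset of 64, which narrows the differences of dim probe sets, that of Tpm1 was −0.22. Over all probe sets, limma passed 0 after adjustment, but 60 with an offset of 64, 52 with only the probe sets brighter than the median and 520 with an intensity trend and robust moderation. At least 1.5-fold higher and lower were 129 and 71 probe sets, against 1778 and 1557 with an offset of 1, 23 and 13 with an offset of 64, and 38 and 13 among bright probe sets, of which fewer were tested. Without 1 array they were 226 to 387 higher and 145 to 259 lower. Beyond the construction of each alternative, the cause was not tested.

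Replicate numbers are shared by the genotypes, but the labels do not say that they pair the samples, and deviations of same-numbered arrays correlated at −0.033 over all probe sets. With the replicate number as a block the differences were the same by construction, the standard error of Tagln was 0.069 in place of 0.059, and 0 probe sets passed. Counting all probe sets of a gene changed the named smooth muscle genes to 2 higher and 2 lower, through Rgs5. In the 250 bases before the start alone, CATTCC was found in 12.6% of windows. Dim signals limit Cald1 and Tpm1 most, which were brighter than 68.8% and 61.1% of all probe sets.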
